A study of Mus musculus with 6 samples.

Results

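Cluster 3 was a cluster of Il17a-transcribing CD4 T cells in the authors' grouping of colonic lamina propria cells, and it held 1801 of the 23595 cells in the deposited table. A cell counted as a member when the authors' cluster column read 3 and the cell was assigned to a hashed replicate. Of all cells, 18874 were so assigned, and 18658 of these had a cluster. The reading of the cluster as T helper 17 (Th17)-like came with the genes Il17a, Ccl20, Nrgn, Ckb and Mmp9, which are checked against the data before the results.

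The mice carried Foxp3{delta}EGFPiCre/WT, a reporter allele beside an intact Foxp3 allele, together with 1 copy of a tdTomato reporter (R26lsl-tdTomato/wt). Foxp3 lies on the X chromosome (positions 7573644 to 7595245 in GRCm38), and the delta allele is read here as one that drives EGFP and Cre but makes no Foxp3 protein. Each T cell uses the X chromosome with either allele. Cre removes the stop before tdTomato, so tdTomato marks a cell in which the allele was active at some time, and GFP one in which it was active at the sort. The tdTomato+GFP+ gate held cells positive for both reporters. The tdTomato-GFP- gate held cells with neither, which can include Treg cells that use the intact allele. Each gate gave 3 biological replicates that were marked with hashtag antibodies and run together on 1 lane, and an effect of the lane cannot be told apart from one of the gate. The age of the mice is not stated in the labels. The labels call the replicates biological, and p-values measure the spread between them.

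Th17 cells are CD4 T cells that secrete IL-17A, IL-17F and often IL-22. In the gut they are induced by adherent bacteria and act on epithelial cells, which respond with antimicrobial proteins and tighter junctions. IL-23 and IL-1 can turn them towards an inflammatory form that also makes IFN-γ and GM-CSF. Peripherally induced regulatory T (Treg) cells of the colon can resemble them and are set apart by Foxp3.

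Cluster 3 had 336, 791 and 333 cells in replicates 1 to 3 of the tdTomato+GFP+ gate, against 189, 93 and 59 cells in those of the tdTomato-GFP- gate. These were 16.9% ± 2.80 of the clustered tdTomato+GFP+ cells and 3.33% ± 0.344 of the clustered tdTomato-GFP- cells (SD, n = 3 each). Among cells of the Il17a-rich clusters (1, 2, 3, 12 and 13), cluster 3 made up 25.5% ± 1.56 in the tdTomato+GFP+ gate and 29.6% ± 3.35 in the tdTomato-GFP- gate. The sort and the clustering set these shares, so they are given as a description. Summed UMIs of cluster 3 came to 1359914, 3184923 and 1278972 in the tdTomato+GFP+ replicates, against 832878, 397882 and 270340 in the tdTomato-GFP- replicates, and the median cell had 3443.5 UMIs in the tdTomato+GFP+ gate and 3948 in the tdTomato-GFP- gate. Cell barcodes present in both lanes numbered 174 in the whole table, and 28 cluster 3 cells had one.

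All 5 genes given with the label were found in every replicate of cluster 3. In CPM, which scale UMIs by a replicate's total without hashtags, Il17a (chromosome 1, 20730905 to 20734496) stood at 8739, 7174 and 7756 in the tdTomato+GFP+ replicates of cluster 3 and at 5719, 6062 and 6581 in the tdTomato-GFP- replicates. Cluster 9, which served as a cluster low in Il17a, had 81.2 CPM over its tdTomato+GFP+ cells and 9.32 CPM over its tdTomato-GFP- cells. Ccl20, a chemokine that attracts CCR6-bearing cells (chromosome 1, 83116766 to 83119167), and Mmp9, a secreted gelatinase (chromosome 2, 164940780 to 164955850) are given by replicate with the comparisons. Ckb had 626 to 764 CPM in the tdTomato+GFP+ replicates and 676 to 969 CPM in the tdTomato-GFP- replicates, and Nrgn 99.3 to 199.7 CPM in the tdTomato+GFP+ replicates and 29.6 to 118 CPM in the tdTomato-GFP- replicates. Cd4 had 492 to 616 CPM in the scale of the gate comparison used later.

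Marker lists of other cell types were summed as a check. The summed level of 11 measured gamma delta T cell genes lay between 1115 and 1234 CPM in the tdTomato+GFP+ replicates and between 832 and 1051 CPM in the tdTomato-GFP- replicates, and Maf, a transcription factor of many T cells, was the largest part of it. The summed stromal and endothelial list came to 158 to 385 CPM in the tdTomato+GFP+ replicates, against 67.2 to 75.4 CPM in the tdTomato-GFP- replicates, with 4 of its 13 measured genes at 0. Igfbp7 was its largest member, with 242 ± 110 CPM in tdTomato+GFP+ cells and 16.2 ± 11.4 CPM in tdTomato-GFP- cells (adjusted p = 0.0953). The part of such cells in the results was not tested. Epithelial genes summed to 8.82 to 13.2 CPM in the tdTomato+GFP+ replicates and 15.1 to 28.8 CPM in the tdTomato-GFP- replicates, with 4 of 15 genes at 0. The B and plasma cell list summed to 341 to 456 CPM in the tdTomato+GFP+ replicates and 289 to 460 CPM in the tdTomato-GFP- replicates, with Cd74 the largest. The myeloid list summed to 479 to 541 CPM in tdTomato+GFP+ replicates and 391 to 545 CPM in tdTomato-GFP- replicates. The NK and innate lymphoid list came to 225 to 300.5 CPM in tdTomato+GFP+ replicates and 273 to 357 CPM in tdTomato-GFP- replicates, led by Il7r. Cd8b1 was at most 3.68 CPM in a tdTomato+GFP+ replicate and at most 6 CPM in a tdTomato-GFP- replicate.

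Cluster 3 had less Il17a, Ccl20, Il22 and Nr4a3 than the summed clusters 1, 2, 12 and 13. The comparison with clusters 1, 2, 12 and 13 is a description without a test, since the clusters were made from these genes. Il17a in the other 4 clusters together stood at 20712, 19187 and 18354 CPM in the tdTomato+GFP+ replicates and at 15376, 15556 and 15532 CPM in the tdTomato-GFP- replicates. The log2 ratio of cluster 3 over the others was -1.32 ± 0.09 (SD over 6 replicates, 20 CPM added to both sides), and no replicate of cluster 3 reached any replicate of the others. By cluster, tdTomato+GFP+ cells averaged 7890 CPM of Il17a in cluster 3, against 23202 in cluster 1, 9789 in cluster 2, 49640 in cluster 12 and 11396 in cluster 13. In tdTomato-GFP- cells the means were 6120 CPM in cluster 3, 23504 in cluster 1 and 9091 in cluster 2. Clusters 12 and 13 had 25 and 8 cells in that gate and were not compared there.

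**Figure D1:**
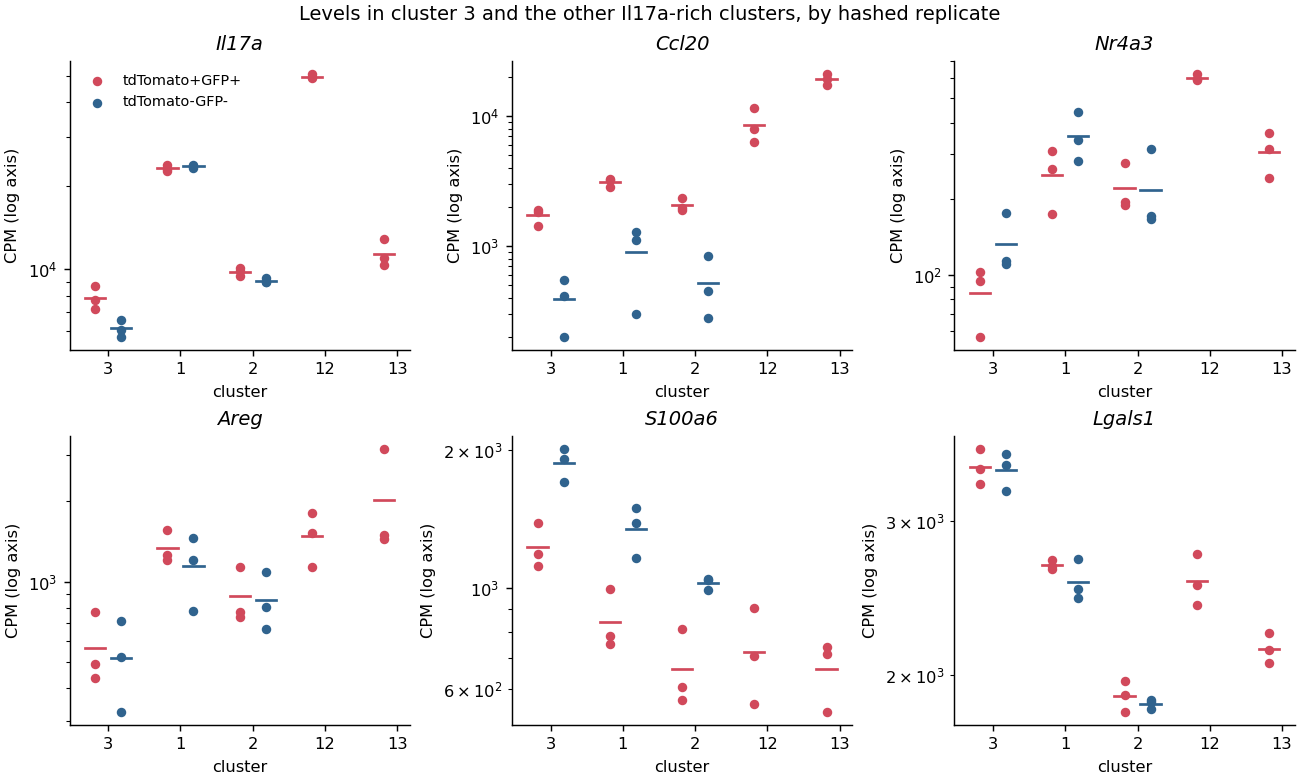
Level of 6 genes in cluster 3 and in the other Il17a-rich clusters (CPM on a log axis), with 1 point for each hashed replicate, a line at the mean, and tdTomato+GFP+ cells left of tdTomato-GFP- cells; clusters 12 and 13 are drawn for the tdTomato+GFP+ gate alone, as the tdTomato-GFP- gate had 25 and 8 cells there. Il17a, Ccl20, Nr4a3 and Areg are lowest on average in cluster 3 and S100a6 and Lgals1 highest, in both gates.

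Ccl20 had 1829, 1437 and 1896 CPM in the tdTomato+GFP+ replicates of cluster 3 and 201, 550 and 411 CPM in the tdTomato-GFP- replicates. In clusters 1, 2, 12 and 13 it had 3640, 3576 and 4208 CPM in the tdTomato+GFP+ replicates and 511, 1076 and 1094 CPM in the tdTomato-GFP- replicates. Its log2 ratio was -1.17 ± 0.18, so the chemokine given as a marker of cluster 3 was lower there than in these clusters together within each replicate. The gap between the gates was wider than that between cluster 3 and these clusters summed, but not than that to each of them. Over all tdTomato+GFP+ cells, Ccl20 had 1629 CPM in cluster 3, 3132 in cluster 1, 2022 in cluster 2, 8287 in cluster 12 and 19174 in cluster 13. Il17f, the partner cytokine of IL-17A, had a log2 ratio of -0.78 ± 0.51 and was lower in cluster 3 in 6 of 6 replicates. Il22 had a ratio of -0.92 ± 0.45, and Il23r, a receptor subunit that Th17 cells need for their inflammatory form, one of -0.35 ± 0.11.

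Nr4a3, an orphan nuclear receptor gene induced within hours of T cell receptor engagement, was among the genes furthest below the other clusters. It had 94.9, 102 and 57.1 CPM in tdTomato+GFP+ cells and 175, 113 and 111 CPM in tdTomato-GFP- cells of cluster 3. The other clusters had 320, 260 and 216 CPM in tdTomato+GFP+ cells and 378, 228 and 246 CPM in tdTomato-GFP- cells. Fosl2, an AP-1 subunit, had a log2 ratio of -1.12 ± 0.22, and Rrad, a small GTPase gene, one of -1.07 ± 0.49. Areg, the epithelial growth factor amphiregulin, followed at -0.99 ± 0.42, Vps37b, a sorting complex gene, at -0.98 ± 0.28, and the AP-1 gene Fosb at -0.92 ± 0.15. Ramp3, a co-receptor for calcitonin family peptides, lay between -1.67 and -0.56 over the replicates. Of 21 genes on a list of T cell receptor-induced genes, 12 were lower in cluster 3 in all 6 replicates and 1 was higher in all 6. Of 21 AP-1 and dissociation stress genes 11 were lower in all 6 and 0 higher, and of 21 measured cytokine and TNF ligand genes 11 were lower in all 6 and 0 higher. Among all genes with at least 50 CPM on 1 side, a minimum not set for these lists, 353 of 3264 were lower in all 6 and 501 higher. The AP-1 list also responds to tissue digestion, and the part of that step in these values was not tested.

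The genes higher in cluster 3 were so by smaller ratios. Of 3264 genes with at least 50 CPM on one side, 501 were higher and 353 lower than in the other clusters in all 6 replicates; 0 of the higher ones were at least doubled, and 5 of the lower ones were at or under 1/2. Nkg7, a cytotoxic granule membrane protein gene, led with a log2 ratio of 0.80 ± 0.23. It had 197, 329 and 358 CPM in tdTomato+GFP+ cells and 396, 370 and 488 CPM in tdTomato-GFP- cells of cluster 3. The other clusters had 97.5, 175 and 245 CPM in tdTomato+GFP+ cells and 218, 240 and 208 CPM in tdTomato-GFP- cells. S100a6, a small calcium-binding protein gene, had a ratio of 0.70 ± 0.05, which was the steadiest of those named. Its CPM in cluster 3 were 1187, 1384 and 1114 in tdTomato+GFP+ cells and 2010, 1910 and 1705 in tdTomato-GFP- cells.

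Lgals1 (galectin-1) had a log2 ratio of 0.62 ± 0.10, S100a4 one of 0.60 ± 0.14 and Anxa2, an annexin, one of 0.52 ± 0.13. Tmsb4x, which binds actin monomers, had 0.50 ± 0.14, Actb (β-actin) 0.48 ± 0.06 and Cfl1 (cofilin) 0.42 ± 0.12. Ctsw, a protease of cytotoxic lymphocytes, had 0.61 ± 0.39 and Il12rb2, a subunit of the IL-12 receptor, 0.57 ± 0.41, both with a wider spread. The cyclin gene Ccnd3 (0.45), the stress gene Gadd45g (0.46), Tomm5 of the mitochondrial import complex (0.44), Ten1 (0.46) and Pqlc3 (0.46) made up the rest of the 15 highest. Of 29 oxidative phosphorylation genes, 18 were higher in cluster 3 in all 6 replicates and 0 lower, with a median log2 ratio of 0.17 against 0.00 over all genes. Beside them, 501 of the 3264 genes with at least 50 CPM on 1 side were higher in all 6 and 353 lower. Among the markers given with the label, Ckb (creatine kinase B) had a ratio of 0.33 ± 0.23 and Mmp9 one of 0.28 ± 0.17, each higher in 6 of 6 replicates. Nrgn (neurogranin, a calmodulin-binding protein) had 0.24 ± 0.64 and was higher in 4 of 6.

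The comparison of the gates within cluster 3 asks how Il17a-transcribing cells with an active Foxp3 reporter allele differed from cells of the same cluster with neither reporter. In tdTomato+GFP+ cells the receptors Il23r, Il1r1 and Cxcr3, the cytokine Il22 and the T cell receptor target Egr1 fell, while Il17a, Mmp9 and Vdr, the vitamin D receptor, rose. Of 8036 genes tested on UMI counts summed per replicate, 143 rose and 268 fell in tdTomato+GFP+ cells at an adjusted p below 0.05 (edgeR's quasi-likelihood test with Benjamini-Hochberg adjustment). These were 1.78% and 3.33% of the genes tested, and 1305 genes passed before adjustment. The fit did not pair the gates by replicate number, and 448 genes passed in a fit that did. For 1782 genes, 22.2% of those tested, the gates' replicates did not overlap. The CPM from here on are scaled by TMM factors, and each log2 fold change, given with its SE, has the tdTomato+GFP+ cells on top. In these sums, fewer cells that transcribe a gene and less of its RNA per cell cannot be told apart.

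Foxp3 checks the sort. Cluster 3 had 107, 104 and 95.5 CPM of Foxp3 in the tdTomato+GFP+ replicates, against 78.3, 36.6 and 7.54 CPM in the tdTomato-GFP- replicates. The tdTomato+GFP+ replicates lay close together and above all tdTomato-GFP- replicates, which were spread widely. The log2 fold change was 0.98 ± 0.43 with an adjusted p of 0.369. Without tdTomato-GFP- replicate 1, it was 2.06 with an adjusted p of 0.00175, and without a filter on low counts 1.01 with 0.0121. In clusters 1, 2, 12 and 13 the same log2 fold change was 2.09, with 176, 149 and 147 CPM in tdTomato+GFP+ cells against 47.3, 29.5 and 24.6 CPM in tdTomato-GFP- cells.

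Among the genes given with the label, Mmp9 and Il17a rose in tdTomato+GFP+ cells. Mmp9 had 169, 242 and 238 CPM in tdTomato+GFP+ cells against 83.3, 49.7 and 64.1 CPM in tdTomato-GFP- cells, a log2 fold change of 1.65 ± 0.19 (adjusted p = 5.6e-05). Il17a had 8799, 7162 and 7640 CPM in tdTomato+GFP+ cells against 5922, 6305 and 6707 CPM in tdTomato-GFP- cells. The groups did not overlap, and the log2 fold change was 0.32 ± 0.07 (adjusted p = 0.0133). The Il17a call was lost without tdTomato-GFP- replicate 1 (adjusted p = 0.111) and without replicate 2 (0.0994).

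Ccl20 differed by more but with more spread. Its 1841, 1435 and 1868 CPM in tdTomato+GFP+ cells stood against 208, 572 and 418 CPM in tdTomato-GFP- cells, with no overlap, and the log2 fold change was 2.17 ± 0.42 (adjusted p = 0.0827). In DESeq2 the adjusted p was 8.06e-05, and without tdTomato-GFP- replicate 1 it was 0.00478. Nrgn had 153, 199 and 97.8 CPM in tdTomato+GFP+ cells and 39.8, 123 and 30.2 CPM in tdTomato-GFP- cells, a log2 fold change of 1.32 ± 0.60 (adjusted p = 0.418). In a fit that pairs the gates by replicate number, whose cells share receptor clonotypes, the adjusted p of Nrgn with this block was 0.000561. Ckb averaged 696 ± 76.4 CPM in tdTomato+GFP+ cells and 830 ± 146 CPM in tdTomato-GFP- cells (adjusted p = 0.368).

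**Figure D2:**
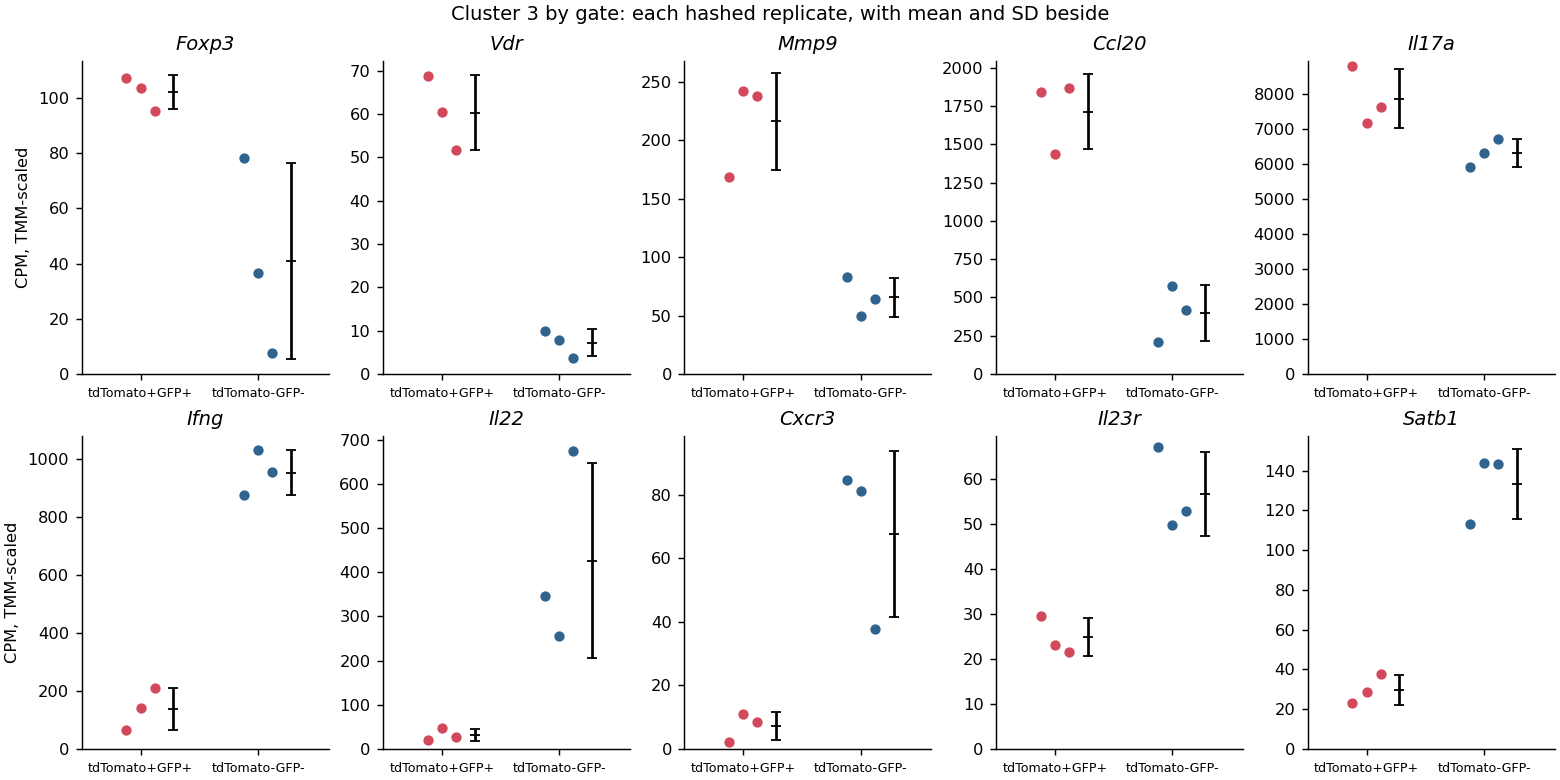
Level of 10 genes in cluster 3 (TMM-scaled CPM, axes from 0) in the 3 tdTomato+GFP+ and the 3 tdTomato-GFP- replicates, with the mean and SD beside the points. Vdr, Mmp9, Ccl20 and Il17a are higher in all tdTomato+GFP+ replicates, and Ifng, Il22, Cxcr3, Il23r and Satb1 are lower; Foxp3 is spread from 7.54 to 78.3 CPM over the tdTomato-GFP- replicates.

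Of the 12 named genes with the largest rise, Vdr is the best known in T cells. Vdr encodes the vitamin D receptor (chromosome 15, 97854425 to 97910630), a nuclear receptor that limits Th17 cytokines. It had 68.9, 60.5 and 51.6 CPM in tdTomato+GFP+ cells against 9.95, 7.84 and 3.77 CPM in tdTomato-GFP- cells, and its log2 fold change was 2.86 ± 0.30 (adjusted p = 1.57e-06). Vdr had 12 UMIs in tdTomato-GFP- cells and passed the filter on low counts through the tdTomato+GFP+ gate. The size of its fold change is therefore uncertain. On a list of 14 tested vitamin and aryl hydrocarbon receptor genes, Vdr was the 1 that rose and 0 fell, beside 1.78% and 3.33% of all tested genes. Prg4, which encodes the joint lubricant proteoglycan 4, had 69.6, 43.3 and 49.3 CPM in tdTomato+GFP+ cells against 6.22, 0 and 0 CPM in tdTomato-GFP- cells. Its 5 UMIs in tdTomato-GFP- cells were all in replicate 1, so the gene passed the filter on low counts through the tdTomato+GFP+ gate and its fold change is not given.

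Syp, the synaptic vesicle protein synaptophysin, had 61.5, 48.6 and 44.7 CPM in tdTomato+GFP+ cells against 3.73, 5.23 and 0 CPM in tdTomato-GFP- cells. It likewise had 5 UMIs in tdTomato-GFP- cells, and the size of its fold change is uncertain too. Gfra4, a receptor of the GDNF family, rose by 2.39 on the log2 scale, Plek, the protein kinase C substrate pleckstrin, by 2.34, and Klhdc2, an adaptor for protein degradation, by 2.29. Tspan32, a tetraspanin of haematopoietic cells, rose by 2.12 to 221, 172 and 141 CPM in tdTomato+GFP+ cells, against 39.8, 47.1 and 33.9 CPM in tdTomato-GFP- cells. Ift57, a gene of cilium transport, rose by 2.10. Plek lost its call when each clonotype was counted by 1 cell (adjusted p = 0.134) and with the cells that had both chains (0.0817). Without tdTomato-GFP- replicate 1 Gfra4 lost it (0.0959). Gfra4 and Plek had 8 and 22 UMIs in tdTomato-GFP- cells and also passed the filter on low counts through the tdTomato+GFP+ gate.

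The other 4 genes of that group had 1 to 3 UMIs in the tdTomato-GFP- cells of cluster 3. Glp1r, the receptor of glucagon-like peptide 1, had 136 UMIs in tdTomato+GFP+ cells against 2 in tdTomato-GFP- cells, a ratio per UMI of 17.5 with a 95% counting interval of 4.76 to 146. C1ql1, a synapse-organizing secreted protein gene, had 171 against 3 UMIs (14.7, interval 4.94 to 71.9), and Plod2, a collagen lysyl hydroxylase gene, 117 against 3 (10.1, interval 3.36 to 49.4). Trav8d-1, a receptor V gene whose count is uncertain because of near-identical copies, had 146 against 1 UMI (37.6, interval 6.65 to 1496). The intervals cover counting error only. Without tdTomato-GFP- replicate 1 the calls of C1ql1, Plod2 and Trav8d-1 were lost (adjusted p = 0.153, 0.0654 and 0.227).

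The 12 named genes with the largest fall included receptors and effector genes of Th1 and inflammatory Th17 cells. Cxcr3, the chemokine receptor of Th1 cells, had 2.22, 11 and 8.47 CPM in tdTomato+GFP+ cells against 84.6, 81.0 and 37.7 CPM in tdTomato-GFP- cells (log2 -3.14 ± 0.37, adjusted p = 0.000235). Cxcr3 passed the filter on low counts through the tdTomato-GFP- gate, so the size of its fold change is uncertain. Il22, a cytokine that acts on epithelium (chromosome 10, 118204942 to 118210047), had 20.0, 47.3 and 27.7 CPM in tdTomato+GFP+ cells against 347, 256 and 675 CPM in tdTomato-GFP- cells, with no overlap. Its log2 fold change was -3.55 ± 0.54 with an adjusted p of 0.0459, and 0.167 with the replicate block. Its call was also lost when any 1 of 5 replicates was left out, with adjusted p between 0.0917 and 0.178.

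Satb1, a chromatin organizer of T cells, had 23.0, 28.5 and 37.7 CPM in tdTomato+GFP+ cells against 113, 144 and 143 CPM in tdTomato-GFP- cells (log2 -2.13 ± 0.18, adjusted p = 6.43e-08). Ctsw, a lysosomal protease of cytotoxic lymphocytes, fell by 2.74 on the log2 scale, St3gal6, a sialyltransferase gene, by 2.92, and Fas, a death receptor, by 2.12. Ermn, a cytoskeletal gene known from oligodendrocytes, fell by 2.69 and Ly6g5b by 2.64. The potassium channel gene Kcnc1 fell by 2.58, the adhesion receptor gene Adgrg5 by 2.56, the spermine oxidase gene Smox by 2.22 and AA467197 by 3.16. For all 12 the replicates of the gates did not overlap, which the choice of these genes required.

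**Figure D3:**
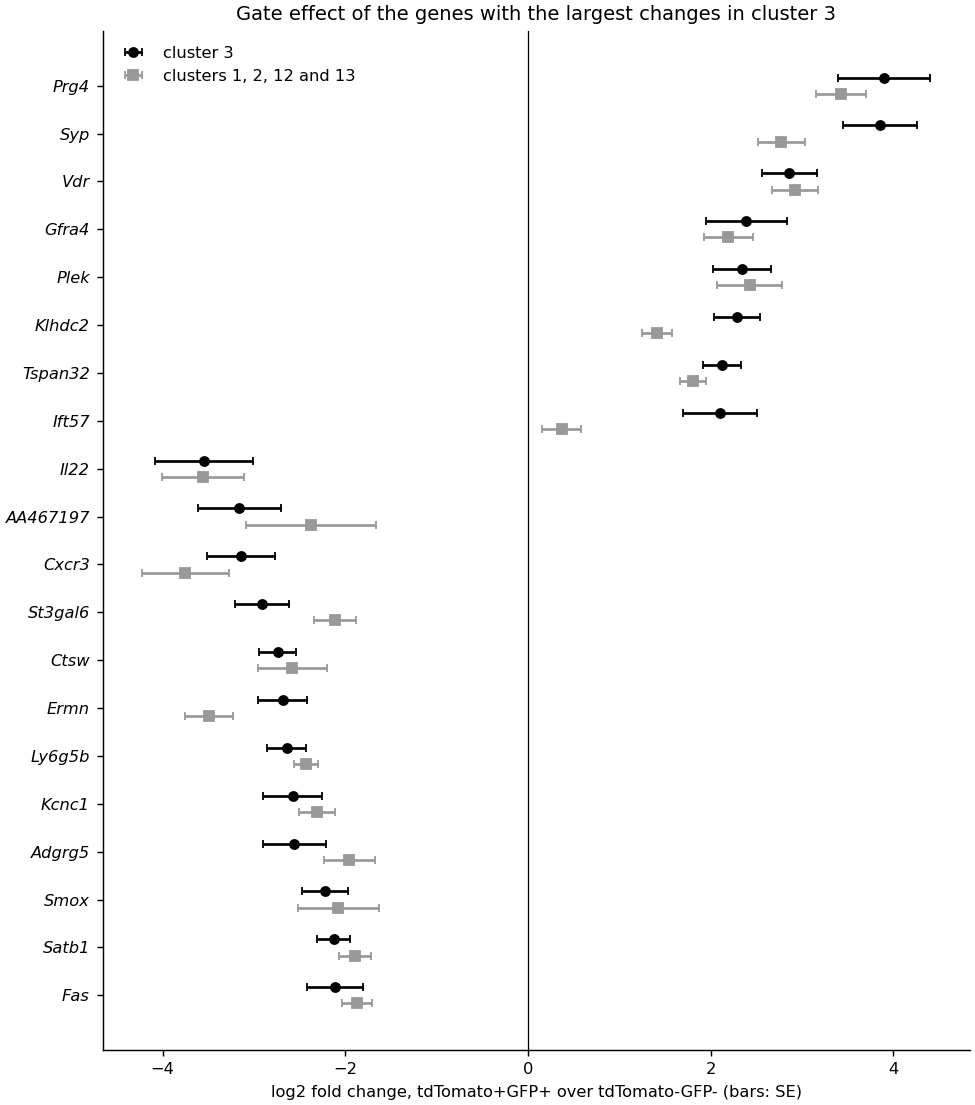
Gate effect (log2 fold change with SE, above 0 where tdTomato+GFP+ cells are higher than tdTomato-GFP- cells) of the genes with the largest rise and fall in cluster 3, as black circles, beside that in clusters 1, 2, 12 and 13, as grey squares; the 4 genes with 1 to 3 UMIs in a gate are left out. The 2 values lie on the same side of 0 for each gene drawn, and Ift57 shows the widest gap among the rises, 2.10 in cluster 3 against 0.37 in the others. Ift57 is not among the genes that passed the test of the difference between the gate effects. In cluster 3, Vdr, Prg4, Syp, Gfra4 and Plek passed the filter on low counts through the tdTomato+GFP+ gate, and Cxcr3 through the tdTomato-GFP- gate. The sizes of their values are therefore uncertain.

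Both receptors for the cytokines that promote inflammatory Th17 cells fell. Il23r (chromosome 6, 67422932 to 67491855) had 29.6, 23.2 and 21.6 CPM in tdTomato+GFP+ cells against 67.1, 49.7 and 52.8 CPM in tdTomato-GFP- cells (log2 -1.27 ± 0.22, adjusted p = 0.000592). Il1r1, the IL-1 receptor, had 27.4, 26.3 and 20.8 CPM in tdTomato+GFP+ cells against 68.4, 65.3 and 75.4 CPM in tdTomato-GFP- cells (log2 -1.45 ± 0.20, adjusted p = 5.01e-05). Il17re, the receptor of IL-17C, fell by 1.86, and the IL-7, IL-18 and IL-21 receptor genes Il7r, Il18r1 and Il21r by 0.59, 0.56 and 0.52. Of 17 tested cytokine receptor genes, 0 rose and these 6 fell, with a median log2 fold change of -0.52, against -0.00 over all 8036 genes. Of those 8036 genes, 1.78% rose and 3.33% fell. The Il23r call was lost without tdTomato-GFP- replicate 1 (adjusted p = 0.0790) and with 1 cell per clonotype, where its log2 fold change was -0.65 (0.431). The Il7r and Il18r1 calls were also lost with 1 cell per clonotype (0.181 and 0.549).

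On a list of 15 tested genes linked to inflammatory Th17 cells, 0 rose and 5 fell (Il23r, Il1r1, Il18r1, Cxcr3 and Il22), with a median of -0.78. With 1 cell per clonotype the calls of Il23r, Il18r1 and Il22 were lost (adjusted p = 0.431, 0.549 and 0.190). Il18r1 also lost its call in DESeq2 (0.0541) and without replicate 2 of the tdTomato+GFP+ gate (0.0600) or of the tdTomato-GFP- gate (0.0512). Among all tested genes 1.78% rose and 3.33% fell. Ifng, the Th1 cytokine, had 65.2, 141 and 209 CPM in tdTomato+GFP+ cells against 875, 1030 and 954 CPM in tdTomato-GFP- cells, a log2 fold change of -2.78 ± 0.44 without overlap (adjusted p = 0.0506, and 5.91e-07 in DESeq2). Csf2, which encodes GM-CSF, averaged 6.09 ± 1.43 CPM in tdTomato+GFP+ cells and 37.0 ± 38.3 CPM in tdTomato-GFP- cells. Its adjusted p was 0.142, and 0.000387 with the replicate block. Csf2 passed the filter on low counts through the tdTomato-GFP- gate, where it is high, so its fold change and these p-values are uncertain. Tbx21, the Th1 master regulator T-bet, had a log2 fold change of -0.78 ± 0.28 (adjusted p = 0.158, and 0.0153 with the block). Of 12 tested Th1 genes 0 rose and 2 fell (Cxcr3 and Il18r1).

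Genes of Th17 identity went in both directions. On the list of 23 tested Th17 effector and identity genes, Il17a was the 1 that rose, and 7 fell, with a median of -0.29. The shares over all tested genes were 1.78% that rose and 3.33% that fell. Il17f had 1754, 1118 and 1426 CPM in tdTomato+GFP+ cells and 576, 1239 and 1629 CPM in tdTomato-GFP- cells, which overlapped (adjusted p = 0.798). Rora, a nuclear receptor of Th17 cells, had a log2 fold change of -0.38 ± 0.12 (adjusted p = 0.0743, and 0.0397 with the block). Ccr6, the CCL20 receptor, averaged 41.7 ± 14.8 CPM in tdTomato+GFP+ cells and 45.7 ± 20.8 CPM in tdTomato-GFP- cells (adjusted p = 0.779). Among other regulators, Gata3, Maf, Ahr, Prdm1 and Tcf7 had log2 fold changes of -0.02, -0.02, 0.37, 0.19 and -0.34, with adjusted p of 0.318 or more. Il21 had a log2 fold change of -1.09 (adjusted p = 0.634), and Il2 was not tested, as it had 3 UMIs over all tdTomato+GFP+ replicates and 1 over all tdTomato-GFP- replicates. Cxcr6, a homing receptor of tissue T cells, fell by 0.65 to 777, 776 and 792 CPM in tdTomato+GFP+ cells, against 1159, 1328 and 1195 CPM in tdTomato-GFP- cells.

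Treg-linked genes moved in both directions. Of 19 tested genes of a Treg list 4 rose and 1 fell, where 1.78% of all tested genes rose and 3.33% fell. Il2ra, the high-affinity IL-2 receptor chain, rose by 0.76 (adjusted p = 0.0411) to 126, 85.9 and 78.6 CPM in tdTomato+GFP+ cells, against 56.0, 49.7 and 67.9 CPM in tdTomato-GFP- cells. Nt5e (CD73, which makes adenosine) rose by 1.04, the cytokine signalling inhibitor Socs2 by 1.00 and the heparan sulfate proteoglycan Sdc4 by 0.46, while the costimulatory receptor Tnfrsf4 (OX40) fell by 0.68. Ctla4 averaged 2231 ± 420 CPM in tdTomato+GFP+ cells and 2203 ± 467 CPM in tdTomato-GFP- cells. Il10 had 110, 63.3 and 83.2 CPM in tdTomato+GFP+ cells and 79.6, 28.8 and 33.9 CPM in tdTomato-GFP- cells (log2 0.57 ± 0.43, adjusted p = 0.623, and 0.0218 with the block). Ikzf2 (Helios) had 24.4, 26.3 and 25.4 CPM in tdTomato+GFP+ cells and 78.3, 20.9 and 33.9 CPM in tdTomato-GFP- cells (adjusted p = 0.129). The Il2ra call was lost in DESeq2 (adjusted p = 0.184) and when any 1 of 4 replicates was left out. Nt5e and Sdc4 lost theirs without tdTomato-GFP- replicate 1 (0.111 and 0.109), and Nt5e also without replicate 2 of that gate (0.0682). With 1 cell per clonotype the calls of Il2ra, Nt5e and Sdc4 were lost (0.552, 0.115 and 0.538).

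Of 19 tested genes that T cell receptor signals induce, 2 rose and 6 fell in tdTomato+GFP+ cells, with a median of -0.63. Across all tested genes 1.78% rose and 3.33% fell. Egr1 fell by 1.58 to 101, 123 and 161 CPM in tdTomato+GFP+ cells, against 363, 455 and 324 CPM in tdTomato-GFP- cells (adjusted p = 7.83e-05). Egr2 fell by 1.99, the activation antigen Cd69 by 0.80, and Ier5 by 0.74, while the calcium-regulated factor Nfatc1 rose by 0.52 and Cd83 by 1.22. Egr2 was at -1.21 (adjusted p = 0.242) without tdTomato-GFP- replicate 1, and Ier5 lost its call with 1 cell per clonotype (0.0953). Cd5, an inhibitory surface receptor whose level tracks receptor signal strength, fell by 1.18 to 307, 316 and 330 CPM in tdTomato+GFP+ cells, against 695, 766 and 697 CPM in tdTomato-GFP- cells (adjusted p = 2.45e-08). Of 21 AP-1 and dissociation stress genes, 0 rose and 3 fell, Btg2 and Jund among them.

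Cd40lg, the CD40 ligand through which T cells help B cells, fell by 1.24 to 116, 129 and 132 CPM in tdTomato+GFP+ cells, against 338, 280 and 253 CPM in tdTomato-GFP- cells (adjusted p = 5.04e-07). Tnf fell by 1.18 and the death ligand gene Fasl by 1.55. Of 20 tested chemokine receptor and homing genes 2 rose and 5 fell, with a median log2 fold change of -0.02, where 1.78% of all tested genes rose and 3.33% fell. Ccr4 rose by 1.16, while the oxysterol receptor gene Gpr183 fell by 1.07. Of 12 tested matrix and protease genes, 2 rose (Mmp9 and the protease inhibitor gene Cst7) and 1 fell (Ctsw). Of 9 tested neuronal genes, Syp was the 1 that rose and 2 fell, of which Ramp3 fell by 1.52. The integrin gene Itgav, whose product activates TGF-β, rose by 1.15 to 146, 133 and 132 CPM in tdTomato+GFP+ cells, against 74.6, 49.7 and 45.2 CPM in tdTomato-GFP- cells. Cd86, a ligand of CD28 and CTLA-4, rose by 1.79, and the checkpoint receptor gene Havcr2 (TIM-3) by 0.85.

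Of 29 oxidative phosphorylation genes 0 rose and 1 fell, of 15 glycolysis genes 0 rose and 1 fell, and of 16 interferon response genes 0 passed the test. Of 13 mitochondrially encoded genes 0 passed. Over all tested genes 1.78% rose and 3.33% fell. Of 14 tested cell cycle genes 0 rose and 4 fell, namely the replication genes Mcm3, Mcm4 and Mcm5 and the chromatin gene Hmgb2, with log2 fold changes of -0.64, -0.65, -0.94 and -0.64. The calls of the 3 Mcm genes were lost in DESeq2 and without either of tdTomato-GFP- replicates 1 and 2.

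The same fit on clusters 1, 2, 12 and 13 called 405 genes higher and 570 lower in tdTomato+GFP+ cells, 4.22% and 5.94% of 9597 tested. Of the 411 genes called in cluster 3, 309 were called with the same sign there, though both sets come from the same animals and lanes. The difference between the gate effects was tested with an interaction term for 8827 genes, of which 21 passed, 0.238% of those tested, and 585 passed before adjustment. In 4 the difference (cluster 3 minus the others) was positive, and in 17 it was negative. Most of the gate effect in cluster 3 was thus not shown to differ from that in its neighbours. Simulated differences of 4-fold were recovered for 61% of genes and of 2-fold for 7%.

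Foxp3 was one of the 21. Its gate effect was 0.98 in cluster 3 and 2.09 in the others, a difference of -1.09 ± 0.24 (adjusted p = 0.0165), which was -0.42 (adjusted p = 0.941) without tdTomato-GFP- replicate 1. The Foxp3 difference also lost its call without tdTomato-GFP- replicate 2 (0.0593). Against cluster 1 alone it was -2.97 (adjusted p = 1.35e-05), and against cluster 2 alone -0.72 (0.436). Over all tdTomato-GFP- cells, Foxp3 had 52.6 CPM in cluster 3, 52.1 in cluster 2 and 9.11 in cluster 1. Clusters 1 and 2 had 2096 and 1599 tdTomato+GFP+ cells but 273 and 476 tdTomato-GFP- cells. Egr1 had a gate effect of -1.58 in cluster 3 and -0.87 in the others, a difference of -0.75 ± 0.11 (adjusted p = 3.55e-05). The Egr1 difference was -0.68 against cluster 1 alone (adjusted p = 0.328) and -0.60 with both receptor chains (0.0525). Odc1, the first enzyme of polyamine synthesis, had 461, 482 and 444 CPM in tdTomato+GFP+ cells against 1681, 1534 and 1191 CPM in tdTomato-GFP- cells of cluster 3. Its gate effect was -1.68 in cluster 3 and -1.30 in the others, a difference of -0.39 ± 0.07 (adjusted p = 0.00479). The Odc1 difference lost its call without tdTomato+GFP+ replicate 2 (0.0589) or 3 (0.0615), without tdTomato-GFP- replicate 1 (0.202) and against cluster 1 alone (-0.20, adjusted p = 0.624).

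Il13, a type 2 cytokine, had the difference with the lowest p, 2.88 ± 0.28 (adjusted p = 4.05e-08). It had 1.48, 49.5 and 90.1 CPM in tdTomato+GFP+ cells and 21.1, 0 and 79.2 CPM in tdTomato-GFP- cells of cluster 3, which overlapped. In the other clusters it averaged 18.4 CPM in tdTomato+GFP+ cells and 89.9 CPM in tdTomato-GFP- cells, and neither gate effect alone passed the test. With the cells that had both receptor chains, the difference was 2.24 (adjusted p = 0.753). Other genes named by this rule were Ifi27l2a (difference 0.60), an interferon-induced gene, the V gene Trbv20 (-0.84), the factors Hopx (-0.72), Tgif1 (-0.65) and Mxd1 (-0.63), and the kinase gene Pim1 (-0.40). Against cluster 1 alone 5 of the 21 passed, against cluster 2 alone 9, and without tdTomato-GFP- replicate 1 only 3 did.

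The share of cells with a UMI of a gene was compared after each cell was thinned to 2000 UMIs, which kept 1362 tdTomato+GFP+ and 328 tdTomato-GFP- cells of cluster 3 and left out 98 and 13. A Foxp3 UMI was found in 15.4, 18.7 and 15.8% of tdTomato+GFP+ cells, against 9.39, 3.41 and 3.39% of tdTomato-GFP- cells. The groups did not overlap, and the exact two-sided permutation p was 0.1, the smallest that 3 against 3 can give. Unthinned, the shares averaged 28.2 ± 0.576% in tdTomato+GFP+ cells and 7.88 ± 4.17% in tdTomato-GFP- cells. Cluster 9 set beside it had thinned shares that averaged 12.9% over the tdTomato+GFP+ replicates (51 cells) and 3.07% over the tdTomato-GFP- replicates (661 cells). Its median depths were 3301 and 3552 UMIs. Its tdTomato+GFP+ replicates had 16.7, 10 and 12%, which overlap those of cluster 3. Its tdTomato+GFP+ cells were sorted on the same Foxp3 reporter and so give no background for Foxp3 in that gate. Replicates 2 and 3 of tdTomato-GFP- cluster 3 cells lay within 1 point of the cluster 9 mean in the same gate, and replicate 1 lay above it, at 9.39%. That gate can include cells that use the intact Foxp3 allele, so cluster 9 gives no background free of Foxp3 there either.

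Cells with both an Il17a and a Foxp3 UMI made up 15.0 ± 1.59% of tdTomato+GFP+ cells and 2.05 ± 1.13% of tdTomato-GFP- cells. Cells with both an Il17a and an Ifng UMI made up 11.6 ± 2.21% of tdTomato+GFP+ cells and 43.7 ± 7.53% of tdTomato-GFP- cells. An Ifng UMI, with or without one of Il17a, was found in 10.3, 14.3 and 14.5% of tdTomato+GFP+ cells against 44.8, 59.1 and 54.2% of tdTomato-GFP- cells. Il22 was found in 0.94, 1.23 and 0.965% of tdTomato+GFP+ cells against 13.3, 12.5 and 20.3% of tdTomato-GFP- cells. In cluster 9 the replicates averaged 0 and 1.69% for Ifng, and 0 and 0.95% for Il22, in the tdTomato+GFP+ and the tdTomato-GFP- gate.

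A Ccl20 UMI was found in 61.4 ± 3.95% of tdTomato+GFP+ cells and 18.4 ± 6.62% of tdTomato-GFP- cells, and a Vdr UMI in 9.74 ± 1.47% of tdTomato+GFP+ and 1.12 ± 0.968% of tdTomato-GFP- cells. In cluster 9 the replicates averaged 6.89% of tdTomato+GFP+ and 0.113% of tdTomato-GFP- cells for Ccl20, and 3% and 0% for Vdr. Il17a was found in 93.5 ± 2.70% of tdTomato+GFP+ cells and 78.1 ± 5.07% of tdTomato-GFP- cells. The replicates of cluster 9 averaged 23.1% of tdTomato+GFP+ and 1.37% of tdTomato-GFP- cells for Il17a. For these genes and pairs the gates did not overlap in cluster 3 (exact permutation p = 0.1, adjusted over 14 comparisons 0.14). Il17f (exact p = 0.3), Il10 (0.2), Csf2 (0.4) and Ckb (0.6) overlapped between the gates.

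**Figure D4:**
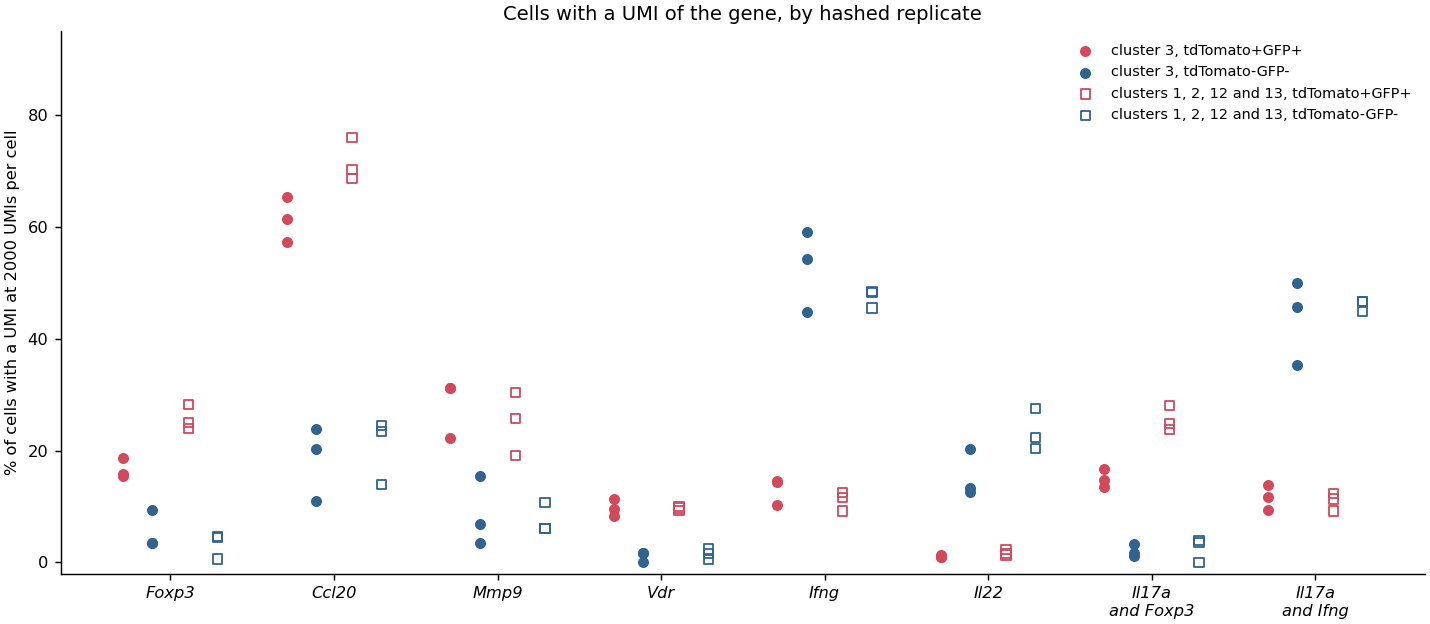
Share of cells with a UMI of each gene or pair of genes at 2000 UMIs per cell, with filled circles for the replicates of cluster 3 and open squares for those of clusters 1, 2, 12 and 13, and tdTomato+GFP+ left of tdTomato-GFP- cells. In cluster 3 the tdTomato+GFP+ replicates lie above the tdTomato-GFP- replicates for Foxp3, Ccl20, Mmp9 and Vdr and below them for Ifng and Il22.

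Receptor sequences, which the label did not use, were read for 1299 cluster 3 cells with both chains: 270, 536 and 235 in the tdTomato+GFP+ replicates and 135, 74 and 49 in the tdTomato-GFP- replicates. A clonotype is a set of cells with the same V gene and junction for both the alpha and the beta chain. Cells that share one descend from 1 T cell or carry the same chains by chance. The junctions below belong to the largest cluster 3 clonotype of each gate and to a pair of tdTomato-GFP- clonotypes that share a beta chain. The first and last codons are in lower case, and the capitals mark the CDR3 between them, the loop that meets the peptide. Alpha genes lie on chromosome 14 and beta genes on chromosome 6.
TRAV6N-7 TRAJ22 alpha of the largest tdTomato+GFP+ clonotype: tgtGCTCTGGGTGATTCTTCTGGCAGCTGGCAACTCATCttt
TRBV19 TRBJ1-3 beta of the largest tdTomato+GFP+ clonotype: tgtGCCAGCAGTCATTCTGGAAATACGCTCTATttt
TRAV16 TRAJ39 alpha of the largest tdTomato-GFP- clonotype: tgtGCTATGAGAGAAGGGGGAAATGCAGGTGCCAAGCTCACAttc
TRBV3 TRBJ2-7 beta of the largest tdTomato-GFP- clonotype: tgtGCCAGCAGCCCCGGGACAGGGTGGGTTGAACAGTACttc
TRAV3D-3 TRAJ16 alpha of the pair: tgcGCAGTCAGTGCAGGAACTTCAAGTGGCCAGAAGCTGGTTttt
TRAV7N-6 TRAJ6 alpha of the pair: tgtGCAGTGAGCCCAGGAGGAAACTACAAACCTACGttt
TRBV15 TRBJ2-1 beta of the pair: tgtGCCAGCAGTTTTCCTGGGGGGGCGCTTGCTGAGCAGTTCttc

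The TRAV6N-7/TRBV19 clonotype had 201 cells in all, 196 in tdTomato+GFP+ replicate 2 and 5 in tdTomato-GFP- replicate 2. In the tdTomato+GFP+ gate 36 of its cells lay in cluster 3, and over both gates 120 lay in clusters 1, 2, 12 and 13. The TRAV16/TRBV3 clonotype had 83 cells, of which 81 came from tdTomato-GFP- replicate 1, 12 of the tdTomato-GFP- ones lay in cluster 3, 18 lay in cluster 6 and 28 in clusters 1, 2, 12 and 13. The TRAV3D-3 and TRAV7N-6 clonotypes had 68 and 39 cells, all from tdTomato-GFP- replicate 2. They shared the TRBV15 junction, and 34 and 27 of their cells carried the other alpha as a second alpha chain, so they were counted as 2 clonotypes where 20 cluster 3 cells share 1 beta. In the tdTomato+GFP+ gate the TRAV14D-2/TRBV20 clonotype, with 34 cluster 3 cells, shared its beta in the same way with a TRAV9D-3 clonotype. The other large cluster 3 clonotypes there were TRAV4D-4/TRBV29 with 28 cells, TRAV6-7-DV9/TRBV15 with 23 and TRAV14-2/TRBV15 with 19.

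Cluster 3 cells of the tdTomato+GFP+ gate lay more often in clonotypes of several cells. Those with 2 or more cells within cluster 3 held 89.3, 73.1 and 68.1% of tdTomato+GFP+ cells, against 46.7, 50 and 44.9% of tdTomato-GFP- cells. The groups did not overlap (exact permutation p = 0.1, adjusted over 10 receptor measures 0.2). More cells were read in the tdTomato+GFP+ gate, and such a share grows with the number read. At 40 cells drawn per replicate, the expected number of clonotypes was 29.1 ± 5.90 in tdTomato+GFP+ cells and 29.9 ± 3.51 in tdTomato-GFP- cells (exact p = 0.9). The largest clonotype held 9.70 ± 2.94% of tdTomato+GFP+ cells and 12.4 ± 3.72% of tdTomato-GFP- cells (exact p = 0.3).

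Cells outside cluster 3 that shared a clonotype with it lay mainly in the other Il17a-rich clusters in the tdTomato+GFP+ gate. There, 78.5, 70.0 and 76.5% of such cells were in clusters 1, 2, 12 and 13, against 27.6, 34.9 and 50.6% in the tdTomato-GFP- gate (exact p = 0.1, adjusted 0.2). Of all cells outside cluster 3 with both chains, 69.8, 57.7 and 53.4% were in those clusters in the tdTomato+GFP+ gate and 8.28, 7.30 and 10.9% in the tdTomato-GFP- gate. The share among cells of a cluster 3 clonotype was higher in 6 of 6 replicates, by 21.8 ± 11.2 percentage points. By gate, this excess was 14.7 ± 7.46 points in tdTomato+GFP+ cells and 28.9 ± 10.3 points in tdTomato-GFP- cells (exact permutation p = 0.2, adjusted 0.333). The larger tdTomato+GFP+ shares thus came without a larger excess over all cells of that gate. If replicates of the same number come from 1 animal, the 6 replicates stand for 3 animals. Over these the smallest exact sign permutation p is 0.25, so no test is given for the excess over all 6. The table of counts holds V gene transcripts, and whether these entered the clustering is not given in the sources used here.

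In the tdTomato-GFP- gate, cluster 6, in which Il17a was lower, was the other main place of cluster 3 clonotypes. It held 6.65, 9.07 and 8.25% of the cells that shared a clonotype with cluster 3 in the tdTomato+GFP+ replicates, against 25.2, 23.4 and 16.9% in the tdTomato-GFP- replicates. Its share of all cells outside cluster 3 was 7.64, 9.40 and 8.99% in the tdTomato+GFP+ replicates and 11.5, 10.1 and 8.18% in the tdTomato-GFP- replicates, so it stood above that in the 3 tdTomato-GFP- replicates and below it in the 3 tdTomato+GFP+ replicates. Over all 6 replicates the difference was 5.61 ± 7.12 percentage points (SD).

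**Figure D5:**
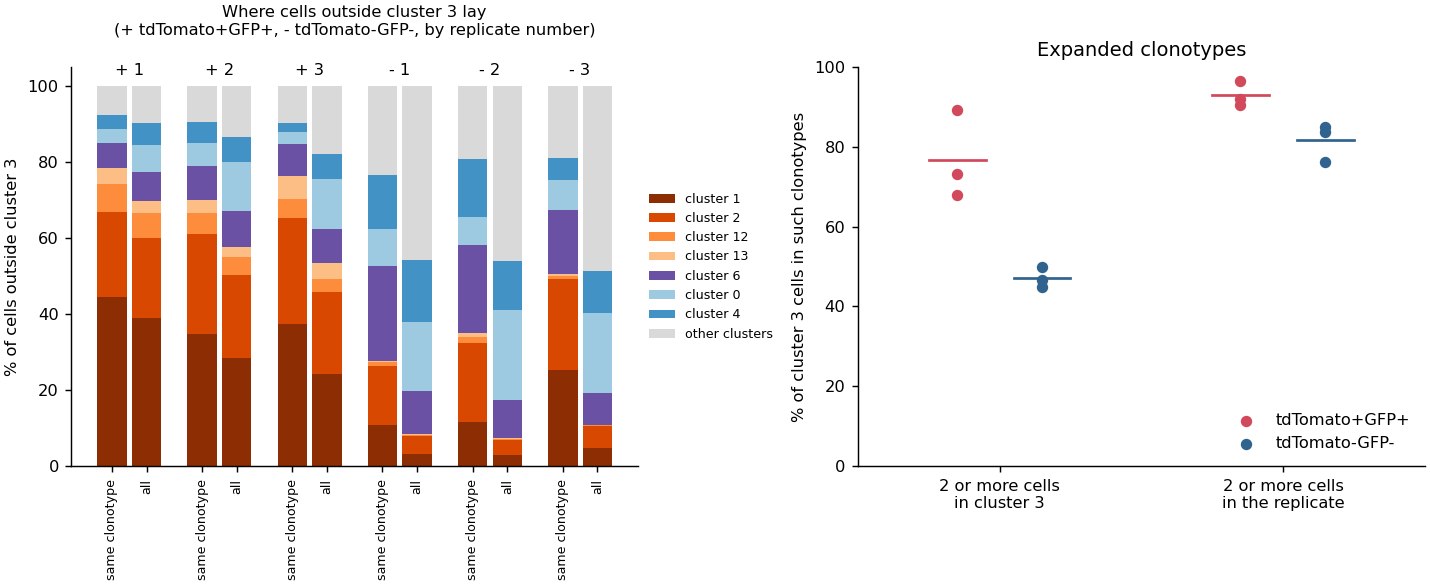
Left: where cells outside cluster 3 lay by cluster, as stacked percentages for cells that share a clonotype with cluster 3 and for all cells with both chains, in each tdTomato+GFP+ (+) and tdTomato-GFP- (-) replicate. Right: share of cluster 3 cells in clonotypes of 2 or more cells, with a line at the mean; the tdTomato+GFP+ replicates lie above the tdTomato-GFP- replicates in both measures.

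Some cluster 3 clonotypes were found in both gates. Of the 64, 228 and 116 cluster 3 clonotypes of tdTomato+GFP+ replicates 1 to 3, 2, 7 and 6 were found among all cells of the tdTomato-GFP- replicate of the same number, and 0 or 1 in those of another number. Of the 92, 44 and 35 cluster 3 clonotypes of the tdTomato-GFP- replicates, 2, 5 and 9 were found in the tdTomato+GFP+ replicate of the same number. Cells in such clonotypes made up 6.90 ± 3.62% of tdTomato+GFP+ and 13.4 ± 7.88% of tdTomato-GFP- cluster 3 cells with both chains (exact p = 0.3). Between replicates of 1 lane, up to 13 clonotypes were shared.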

How the data were processed

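Colonic lamina propria CD4 T cells were sorted into 2 gates, hashed and run on a 10x Chromium instrument with receptor libraries, per the labels' protocols; the chemistry version used is not given in the sources used here. The deposited table gives UMI counts per cell and gene, with whole numbers throughout, and the authors' cell table gives gate, hashed replicate, cluster and the fraction of hashtag counts that belong to the main hashtag, which was at least 0.80 in cluster 3. The submitters' processing notes name the tools Cell Ranger and Scanpy 1.7.2, and the builds mm10 and GRCm38. Filters, clustering settings and the use of V genes in the clustering are not given in the sources used here.

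The 3 hashtag features (43.8% of UMIs) and the 4721 cells without a replicate were left out, and 216 assigned cells had no cluster. No doublet caller was run, so doublets of 1 hashtag remain. UMI counts of cluster 3, and of clusters 1, 2, 12 and 13, were added up for each replicate. The sums went into edgeR 4.0.16 in R 4.3.3 (robust glmQLFit, TMM scaling, and filterByExpr set to a minimum count of 10), over all genes with Benjamini-Hochberg adjustment and a threshold of 0.05. The gate fits had the gate as the only term, and the interaction fit had the replicate as a term. On simulated counts, 88% of 4-fold and 39% of 2-fold changes were recovered for the gate effect in cluster 3. Single values were tested with exact permutation tests over replicates, and counting intervals were exact binomial ones (scipy 1.17.1). Clonotypes were defined by the V genes and junctions of both chains. Coordinates are GRCm38 from the GENCODE annotation.

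Named genes were the 12 largest rises and 12 largest falls among genes called, without overlap and with at least 20 CPM in the higher gate; the given markers and a core list; up to 10 genes by the lowest adjusted p of the difference; the 15 highest and 10 lowest level ratios of the same sign in all 6 replicates; and the genes with the lowest p of each list. Other members of a list that passed the test are named to complete its count. Genes named outside these rules only complete a count. The members, lists and rules were chosen with earlier results of these data known.

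Pairing was checked. Same-numbered replicates of the gates shared 2 to 9 cluster 3 clonotypes, and replicates of the 2 gates with different numbers 0 or 1. In the replicate block the numbers were therefore taken to mark the same animals, which the labels do not say. The main gate fits made no use of this pairing. Within 1 gate, replicates of different numbers shared up to 13, the value for tdTomato+GFP+ replicate 1 looked for in replicate 2. Sharing by itself thus does not show that 2 replicates come from 1 animal. The correlations of the deviations of same-numbered replicates were 0.105, 0.0491 and 0.0726. Alternatives were other normalization factors, filters, DESeq2 1.42.0, glmTreat with a 1.5-fold minimum, a replicate block, leaving out each replicate, 1 cell per clonotype, cells with both chains, other thinning depths and beta chains only; contrasts with cluster 1 or cluster 2 alone were chosen after seeing the data. Results of a few genes are not reported here, though counts over lists and over all genes include them.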

Additional observations from a re-analysis of the deposited data

Results flagged for a closer look

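The gate effect (tdTomato+GFP+ over tdTomato-GFP-) differed between cluster 3 and clusters 1, 2, 12 and 13 by the test of the difference for 21 genes, of which 20 are given here. The difference was positive, on the log2 scale, for Il13 (2.88), Pcsk1 (2.48), Ifi27l2a (0.60) and Cd82 (0.43). It was negative for the surface receptors Ccr2 (-0.48), Tnfrsf1b (-0.69) and Cd69 (-0.37) and for the regulators of transcription Egr1 (-0.75), Tgif1 (-0.65), Mxd1 (-0.63), Hopx (-0.72), Foxp3 (-1.09) and Bhlhe40 (-0.36). It was also negative for the secreted proteins Cxcl10 (-1.10) and Metrnl (-0.88), for Odc1 (-0.39), Pim1 (-0.40), Tmsb4x (-0.26) and Prr7 (-0.56), and for the receptor V gene Trbv20 (-0.84). Of the 21 genes 16 passed against clusters 1 and 2 together, and 3 without tdTomato-GFP- replicate 1, the replicate with the most cluster 3 cells of its gate.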

How the results depend on the processing

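The 411 genes called in cluster 3 became 245 with DESeq2 (84 higher, 161 lower), 131 with 1 cell per clonotype, 77 with a 1.5-fold minimum and 172 to 424 when 1 replicate was left out (172 without tdTomato-GFP- replicate 1). The 975 of the other clusters became 309 with 1 cell per clonotype, 153 with the minimum and 554 to 861 with 1 replicate left out. The 21 differences became 50 without a filter, 12 with both chains, 12 against cluster 1 alone and 3 to 47 with 1 replicate left out. With replicate number as a block the counts were 448, 1275 and 31. Of 70 named genes called, 67 passed in that paired fit, and Il22, Cyp51 and Hmgcs1 did not; Rora, Il10, Tbx21, Csf2, Nrgn, Cxcl10, Tgif1, Socs1, Orai1, Itpr1, Tmeff2 and Nkg7 passed in it alone of these 2 fits. In DESeq2 61 of the 70 passed. None of the 70 changed direction in an alternative that gave it a value.

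The Foxp3 share differed by 11.2 points, by 20.4 unthinned, 17.7 at 3000 UMIs and 10.2 to 13.2 with 1 replicate left out. The share in clonotypes of 2 or more differed by 29.6 points, by 26.1 with beta chains alone and 23.4 to 34.0 with 1 replicate left out. With the block their exact p was 0.25, the smallest 3 pairs can give. Signs turned for uncalled genes only, the cause of which was not tested. With 1 cell per clonotype the log2 fold changes were 0.25 for Ccr6, 0.26 for Gata3, 0.080 for Tcf7, 0.078 for Maf, -0.49 for Il13 and -0.0020 for Mvd. Without a filter they were 0.0093 for Gata3 and 0.011 for Maf, with both chains -0.86 for Il13 and 0.0080 for Maf, and with the block -0.049 for Ccr8. With 1 replicate left out they ranged from -0.56 to 0.26 for Ccr6, -0.32 to 0.25 for Gata3, -0.12 to 0.21 for Ctla4, -0.12 to 0.059 for Maf and -0.23 to 0.33 for Ccr8. The difference in clonotypes at 40 cells ranged from -3.05 to 2.56 so, and was 0.74 with beta chains alone. The 59 cells of tdTomato-GFP- replicate 3 limit what could be detected.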
